A study of Mus musculus with 11 samples.

Results

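The 10 genes described here encode proteins that bind microtubules or tubulin in neurons. They are the structural microtubule-associated proteins *Mapt*, *Map1a*, *Map1b*, *Map2* and *Map6*, the stathmins *Stmn1*, *Stmn2*, *Stmn3* and *Stmn4*, and the collapsin response mediator *Dpysl2*. They were chosen by gene symbol, and all 10 were found once among the 36670 genes of the table and were among the 15087 genes tested. Axons of sensory neurons depend on long microtubules, along which cargo moves between the cell body and the nerve endings. Structural microtubule-associated proteins bind along the polymer and stabilize it, whereas stathmins bind free tubulin and favour disassembly. Paclitaxel (PTX), a chemotherapy drug that causes painful neuropathy, acts on the same polymer by stabilizing it.

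RNA-Seq was performed on poly(A) RNA of mouse dorsal root ganglia (DRGs), where sensory neuron cell bodies are wrapped by satellite glial cells (SGCs). The 11 mice fell into 4 groups: 3 WT controls, 3 WT mice 4 weeks after PTX, 3 *Gpr37l1*-KO controls and 2 *Gpr37l1*-KO mice 4 weeks after PTX. *Gpr37l1* encodes an orphan receptor of SGCs, and the KO was a whole-animal allele (B6;129S5-Gpr37l1tm1Lex/Mmucd) kept with littermates on a C57BL/6 background. PTX was given intraperitoneally, and whether the sequenced mice had a single injection or repeated injections was not given in the sources used here. Mouse 3 of each group was labelled female and the others male, so an effect of sex cannot be told apart from one of mouse number 3. The comparisons ask what PTX does in each genotype, what the KO does in each treatment, and whether PTX acts differently in WT and KO.

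*Gpr37l1* was at 27.6 to 35.7 FPKM in WT controls, 14.6 to 31.7 in WT mice after PTX, 0.21 to 0.29 in KO controls and 0.60 and 1.15 in KO mice after PTX. The 10 sensory neuron markers examined were above 0 in every library, and their summed level was 2250 to 2740 FPKM. The largest terms of the sum were *Uchl1* (785 to 1196 FPKM) and *Prph* (633 to 834 FPKM). WT control 1 had the highest sum and the highest *Uchl1*, but the lowest *Rbfox3*, *Snap25*, *Elavl4*, *Isl1* and *Pou4f1* of the 11 mice. Estimated counts summed to 52735648 to 80348732 per library, and both libraries of KO mice after PTX were near the lower end, at 54914928 and 56747335. The library of WT control 1 stood apart: its counts differed from those of WT controls 2 and 3 with a chi-square of 185 and 169 per degree of freedom, against 29.5 to 78.5 for the other pairs of libraries in a group. Summed FPKM of 12 markers of central glia and spinal cord was 10.8 and 28.2 in KO mice after PTX and 3.63 to 10.1 in the other mice. All 12 were above 0 in both KO mice after PTX and also in WT control 1, where the sum was 10.1. WT PTX mouse 3 had a sum of 8.44, and the remaining mice had 3.63 to 5.35. *Mog*, *Opalin*, *Olig1*, *Olig2* and *Slc32a1* were at 0 in at least 1 library of each group other than KO PTX. The 4 of these markers that were tested were all higher after PTX in KO, with a median log2 fold change of 1.66, and all higher in KO than in WT after PTX, with a median of 1.92. Summed FPKM of 8 skeletal muscle markers was 14.6 to 503 in WT controls, 3.22 to 166 in WT mice after PTX, 98.6 to 561 in KO controls and 63.6 and 92.1 in KO mice after PTX, which were thus below every KO control. None of these 8 was higher after PTX, with a median log2 fold change of -2.79 in WT and -1.72 in KO, and 0 passed the test. Summed FPKM of 6 macrophage markers was 13.5 to 15.8 in WT controls and 9.18 to 11.3 in WT mice after PTX, and that of 4 red cell markers was 59.8 to 239. The part of these cells in the results on the 10 genes was not tested. In bulk tissue, fewer cells of a type and less RNA per cell cannot be told apart.

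All 10 genes were well expressed in the DRG, and together they took 0.826% to 0.953% of the counts of a library. FPKM, a level scaled for gene length and library size, allows different genes to be set side by side. By mean FPKM over the 11 mice, *Stmn3* was highest at 366 ± 44.9 (SD), followed by *Stmn2* at 287 ± 24.0, *Map1b* at 235 ± 24.9, *Stmn1* at 152 ± 18.2 and *Map1a* at 101 ± 3.44. *Mapt* was at 57.2 ± 1.86, *Dpysl2* at 42.3 ± 5.86, *Map6* at 30.1 ± 2.30, *Stmn4* at 10.6 ± 5.51 and *Map2* at 8.43 ± 2.91. *Stmn3*, *Stmn2* and *Map1b* were each above more than 99% of the genes tested. Neighbours in this order kept their order in all 11 libraries with 2 exceptions: *Map1b* was above *Stmn1* in 10 of 11, and *Stmn4* was above *Map2* in 6 of 11.

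**Figure D1:**
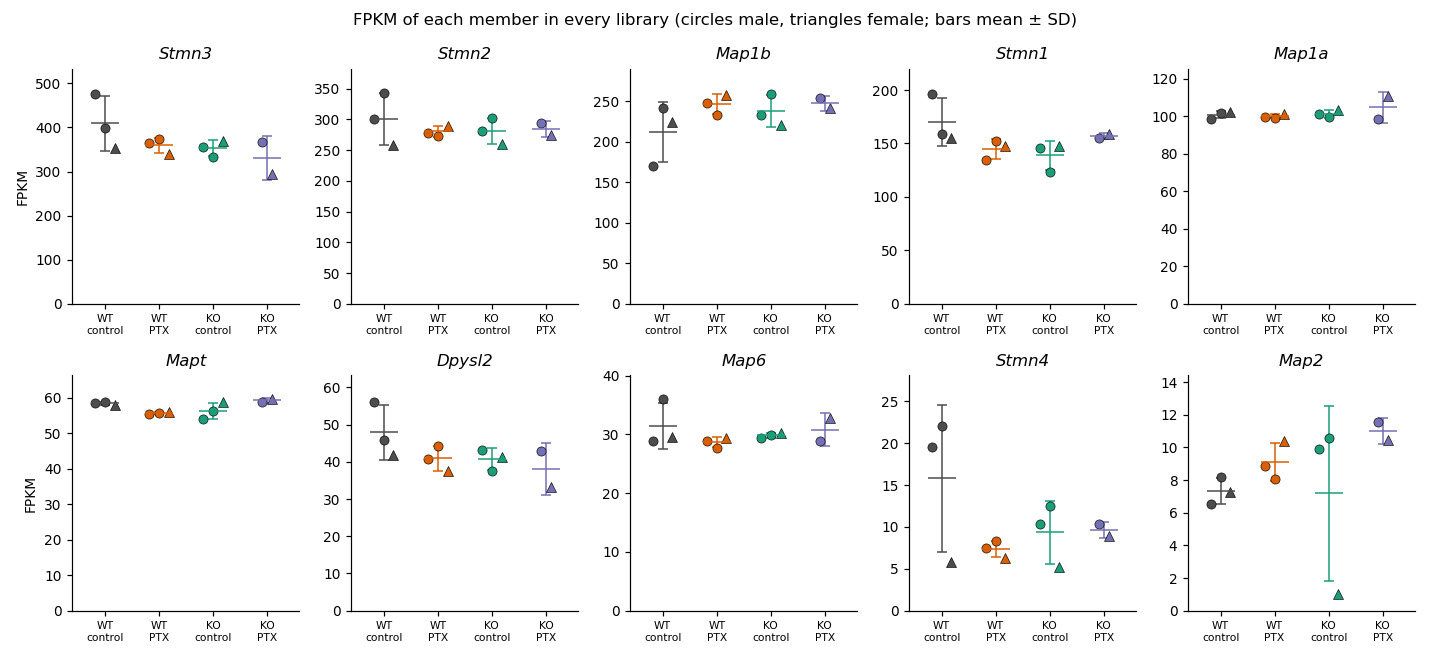
FPKM of the 10 genes in each library, ordered by mean level, with the 4 groups on the x axis of each panel. Circles are male mice, triangles are female mice, and bars show mean ± SD (n = 3, and n = 2 for KO PTX). *Mapt* and *Map1a* were nearly level in all groups, *Stmn4* was high in the male WT controls, and *Map2* was at 1.02 FPKM in 1 KO control.

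The order of the highest genes rested on the length used for scaling. Counts, library totals and FPKM together implied gene lengths that were 1.08 times the summed length of all annotated exons of a gene, for each of the 10 genes. For *Stmn2* these exons cover 5602 bases, against 2073 bases for its longest coding transcript, whereas the only *Stmn3* transcript has 1136 bases. Scaled to the longest coding transcript of each gene in GENCODE M21, mean CPM (library-scaled counts) per kilobase was 836 for *Stmn2* and 395 for *Stmn3*, so that *Stmn2* came first. On that scale *Map1b* was at 339.7, *Stmn1* at 298 and *Map1a* at 112 CPM per kilobase. *Map6* also moved above *Dpysl2*, and *Map2* above *Stmn4*, and 4 of the 10 genes kept their rank.

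Across the genotype and treatment comparisons, no member of the family passed the test. With edgeR's quasi-likelihood test and Benjamini-Hochberg adjustment over all genes tested, 0 of 10 had an adjusted *P* under 0.05 in WT mice after PTX, in KO mice after PTX or in KO against WT controls, where 0.00663% of all genes did. The count was also 0 of 10 for KO against WT after PTX, where 0.0133% of all genes passed, and for the difference of the PTX effect between genotypes, where 0.00663% passed. Averaged over both genotypes for PTX and over both treatments for the KO it was again 0 of 10, against 0.0133% of all genes in each. At an unadjusted *P* under 0.05, 3 members were found for PTX in WT (13.5% of all genes), 0 in KO mice after PTX (4.32%) and 3 in KO against WT controls (7.54%). There were 0 for KO against WT after PTX (3.55%), 2 for the difference of the PTX effects (6.3%), 0 for PTX averaged over both genotypes (9.36%) and 0 for the KO averaged over both treatments (3.75%). DESeq2, limma and the other settings tried also called 0 of 10 in every comparison. Because *P* values do not show equality, the 95% intervals of the fold changes are given for each gene.

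Most of the genes were lower after PTX in WT and lower in KO than in WT controls. For PTX in WT, 8 of 10 had a log2 fold change below 0 (48.8% of all genes were above 0), with a median of -0.12 against -0.0058 over all genes. For KO against WT controls, 8 of 10 were also lower (50.8% of all genes above 0), with a median of -0.14 against 0.0032 over all genes. These comparisons share the 3 WT controls. With 1 library left out, these medians ran from -0.209 (without WT PTX mouse 3) to -0.0424 (without WT control 2) for PTX in WT and from -0.169 to -0.0674 (without KO control 3) for KO against WT controls. For PTX in KO, 8 of 10 were higher (47.3% of all genes above 0), with a median of 0.048 against -0.0089 over all genes. For KO against WT after PTX, 8 of 10 were higher (47.7% of all genes above 0), with a median of 0.072 against -0.0089. With 1 library left out, these medians ran from 0.0152 to 0.107 (without KO PTX mouse 2) and from 0.0314 to 0.126. Each of these 4 comparisons shares a group with 2 of the others. The PTX effect was more positive in KO than in WT for 9 of 10 members (48.2% of all genes), and PTX averaged over both genotypes was above 0 for 3 of 10 (49.3% of all genes). Both quantities are built from the PTX comparisons in WT and in KO given above. Members measured in the same mice are not independent observations.

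**Figure D2:**
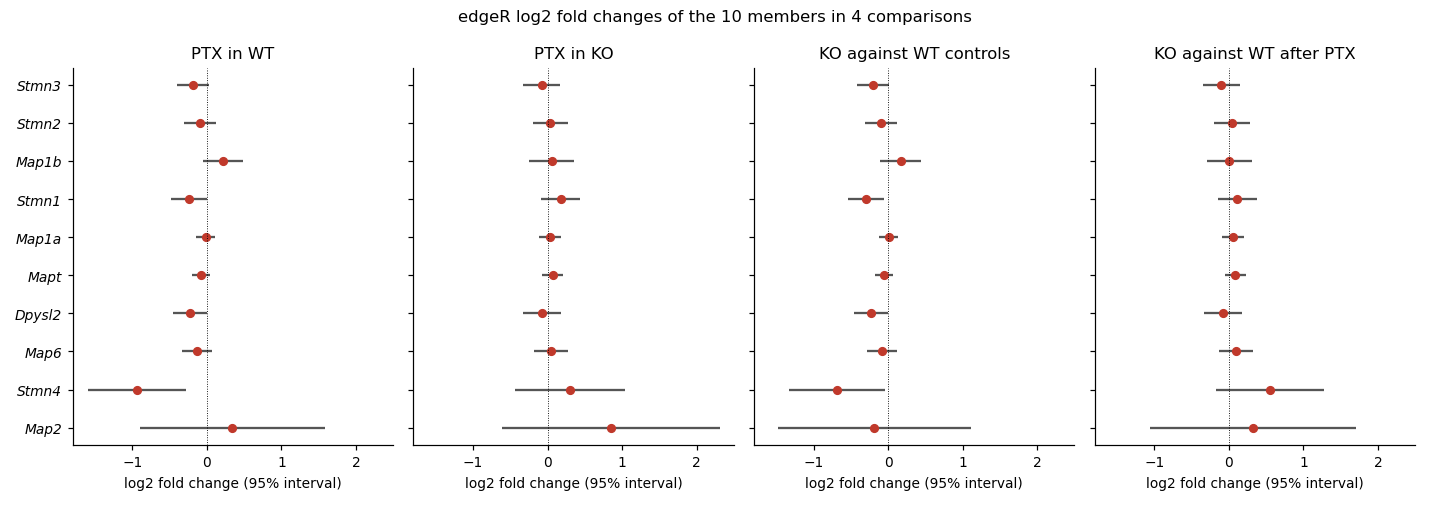
Log2 fold changes of the 10 genes from edgeR in 4 comparisons (x axis, points) with 95% intervals (lines). The intervals of *Mapt* and *Map1a* are the narrowest and those of *Stmn4* and *Map2* the widest, and no gene passed the adjusted threshold.

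*Mapt* encodes tau, which stabilizes axonal microtubules, and lies on chromosome 11 (GRCm38, chr11:104231390-104332090, plus strand). It was at 58.4, 58.9 and 58.0 FPKM in WT controls 1 to 3, and at 55.3, 55.6 and 56.0 in WT mice after PTX. KO controls had 54.0, 56.2 and 58.7 FPKM, and KO mice after PTX had 58.7 and 59.7. WT mice were thus lower after PTX with no overlap, and KO mice were higher after PTX with no overlap, by 58.71 against 58.67 FPKM at the nearest. The log2 fold change for PTX was -0.074 in WT (SE 0.055, 95% interval -0.20 to 0.048) and 0.068 in KO (SE 0.062, 95% interval -0.070 to 0.21). With 1 library left out, these ran from -0.103 to -0.0603 and from 0.0403 (without KO control 1) to 0.0916. In WT the first interval corresponds to a change between -12.7% and 3.41%. The difference of the PTX effects was 0.14 (SE 0.083, 95% interval -0.042 to 0.33) and did not pass the test (edgeR, adjusted *P* = 0.724).

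*Map1a*, the microtubule-associated protein of mature neurons, lies at chr2:121289600-121310832 on the plus strand. Its FPKM was 98.5, 102 and 102 in WT controls, 99.6, 99.3 and 101 in WT mice after PTX, 101, 99.4 and 103 in KO controls, and 98.8 and 111 in KO mice after PTX. The groups overlapped in every comparison. For PTX in WT, the log2 fold change was -0.014 (95% interval -0.14 to 0.12) and for KO against WT controls 0.0072 (95% interval -0.12 to 0.14). Both values turned sign with 1 library left out, within -0.0359 to 0.00141 and -0.0149 to 0.026. *Map1a* overlaps *Ppip5k1* on the opposite strand, which had a mean of 5.94 FPKM. The female mouse had the highest *Map1a* of its group in all 4 groups, as did 4.18% of all genes, and female against male mice differed by 0.049 on the log2 scale (SE 0.045).

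*Mapt* and *Map1a* were the steadiest members between mice of a group. The within-group SD of log2 CPM was 0.032 for *Mapt* and 0.047 for *Map1a*, and 99.7% and 97.2% of the 4501 genes with a mean of at least 10 FPKM had a larger one. The median of these genes was 0.12. *Map6* was at 0.10, *Stmn2* at 0.13, *Stmn1* at 0.14, *Map1b* and *Stmn3* at 0.16 and *Dpysl2* at 0.18. *Stmn4*, at 0.67, and *Map2*, at 1.03, were at the other end, and 1.29% and 0.778% of the same genes had a larger SD.

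**Figure D3:**
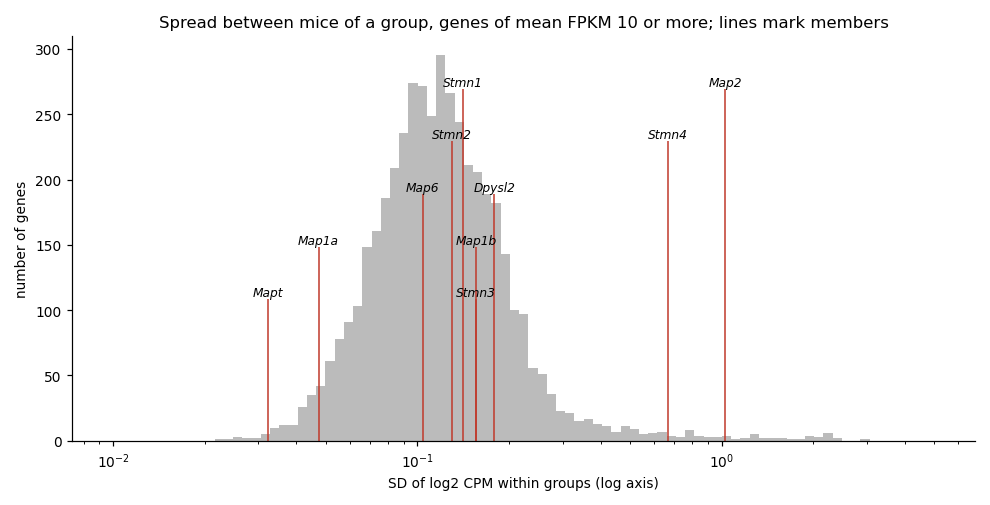
Histogram of the within-group SD of log2 CPM (x axis, log scale) over the 4501 genes with a mean of at least 10 FPKM (y axis, number of genes). Lines mark the 10 members, of which *Map2* has a mean below 10 FPKM, and line heights carry no value. *Mapt* and *Map1a* sit at the low end and *Stmn4* and *Map2* at the high end.

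*Map1b*, a microtubule-associated protein of growing axons, lies at chr13:99421446-99516540 on the minus strand. It was at 171, 241 and 224 FPKM in WT controls, 248, 233 and 258 in WT mice after PTX, 233, 259.6 and 221 in KO controls, and 254 and 241 in KO mice after PTX. The lowest value was that of WT control 1, and the groups overlapped in each comparison. PTX in WT gave a log2 fold change of 0.21 (SE 0.12, 95% interval -0.056 to 0.49), and KO against WT controls gave 0.17 (SE 0.12, 95% interval -0.10 to 0.44). Without WT control 1 these were 0.081 (SE 0.093) and 0.030 (SE 0.093), and their highest values with 1 library left out were 0.328 and 0.284. *Map1b* and *Map2* were the 2 members above 0 for PTX in WT. The value for *Map2* was 0.34 (SE 0.56, 95% interval -0.90 to 1.59) and ran from -0.202 to 0.643 with 1 library left out.

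*Map6*, which encodes a protein that protects microtubules from cold and drugs, lies at chr7:99267447-99337137 on the plus strand. It had 28.9, 36.0 and 29.6 FPKM in WT controls, 29.0, 27.8 and 29.4 in WT mice after PTX, 29.4, 30.0 and 30.2 in KO controls, and 28.8 and 32.8 in KO mice after PTX. WT control 2 was the highest, and the other mice lay within 27.8 to 32.8. On the log2 scale, PTX in WT gave -0.14 (SE 0.091, 95% interval -0.34 to 0.066), and KO against WT controls gave -0.077 (SE 0.091, 95% interval -0.28 to 0.12). Without WT control 2 these were -0.0196 and 0.0396, and without WT control 3 they were -0.213 and -0.153.

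*Map2*, whose protein is best known from dendrites, lies at chr1:66175273-66442583 on the plus strand, on the same chromosome as *Gpr37l1*. It was at 6.54, 8.16 and 7.26 FPKM in WT controls, 8.87, 8.06 and 10.4 in WT mice after PTX, 9.92, 10.6 and 1.02 in KO controls, and 11.5 and 10.4 in KO mice after PTX. KO control 3 was 6.41-fold below the lowest of the other 10 mice, with 1398 counts against 6172 to 14835. Among the 7341 genes with a mean of at least 5 FPKM, 0.232% had 1 library more than 4-fold below every other, a limit set after this value was seen. KO control 3 had 2 such genes, and the other was *Npy*, the gene of neuropeptide Y, at 0 FPKM. The neighbouring gene *Unc80* was at 8.28 FPKM in KO control 3 and at 8.09 and 8.37 in KO controls 1 and 2.

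The fold changes of *Map2* rested on KO control 3. With all mice, KO against WT controls gave a log2 fold change of -0.18 (SE 0.58, 95% interval -1.48 to 1.11), and PTX in KO gave 0.85 (SE 0.66, 95% interval -0.61 to 2.31). Without that mouse the first became 0.52 (SE 0.13, edgeR adjusted *P* = 0.468) and the second 0.053 (SE 0.15). With any 1 library left out, the first ran from -0.559 to 0.52 and the second from 0.053 to 1.22. The KO difference averaged over both treatments moved from 0.069 (SE 0.42) to 0.39 (SE 0.089), with an unadjusted *P* of 0.00171 from edgeR and an adjusted *P* of 0.765. After PTX, *Map2* of both KO mice was above that of the 3 WT mice, by a margin of 10.43 against 10.38 FPKM at the nearest. The log2 fold change for KO against WT after PTX was 0.32 (SE 0.62, 95% interval -1.06 to 1.71).

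*Stmn1*, the widely expressed member of the stathmin family, lies at chr4:134468320-134473843 on the plus strand. WT controls had 196, 159 and 155 FPKM, and WT mice after PTX had 134, 153 and 147. KO controls had 146, 123 and 148 FPKM, and KO mice after PTX had 155 and 159. As with *Mapt*, the values did not overlap between controls and PTX in either genotype, and the direction was lower in WT and higher in KO. *Mapt* and *Stmn1* were the 2 of 10 members lower without overlap for PTX in WT (7.37% of all genes) and higher without overlap for PTX in KO (11.3%), whereas 0 of 10 were higher for PTX in WT (6.81%) and 0 of 10 lower for PTX in KO (10.4%). Of all genes, 0.974% showed opposite directions in this way. *Stmn1* had a log2 fold change of -0.24 for PTX in WT (SE 0.11, 95% interval -0.48 to -0.00042, adjusted *P* = 0.371) and 0.17 for PTX in KO (SE 0.12, 95% interval -0.092 to 0.44), the latter running from 0.113 to 0.232 with 1 library left out. The difference of the PTX effects was 0.41 (SE 0.16, 95% interval 0.056 to 0.77), with an edgeR adjusted *P* of 0.724.

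KO controls were also below WT controls without overlap in *Stmn1*, which was the only member to be so (4.73% of all genes), and 0 of 10 were above (4.55%). This log2 fold change was -0.30 (SE 0.11, 95% interval -0.54 to -0.059, edgeR adjusted *P* = 0.657). WT control 1 held the highest *Stmn1* value. Without it, the fold change for PTX in WT was -0.105 (SE 0.081), that for KO against WT controls -0.17 (SE 0.081) and the difference of the PTX effects 0.275 (SE 0.115, edgeR adjusted *P* = 0.822). After PTX, 4 of 10 members were higher in KO than in WT without overlap (10.7% of all genes), namely *Mapt*, *Map2*, *Stmn1* and *Stmn4*, and 0 of 10 were lower (9.58%).

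*Stmn2*, a neuronal stathmin of growing and regenerating axons also known as SCG10, lies at chr3:8509360-8561606 on the plus strand. It was at 301, 344 and 258 FPKM in WT controls, 278, 273 and 290.1 in WT mice after PTX, 281, 303 and 260.0 in KO controls, and 294 and 275 in KO mice after PTX. The groups overlapped throughout, and the spread was widest in WT controls. The log2 fold change was -0.095 for PTX in WT (SE 0.096, 95% interval -0.31 to 0.12), 0.038 for PTX in KO (SE 0.11, 95% interval -0.20 to 0.28) and -0.093 for KO against WT controls (SE 0.096, 95% interval -0.31 to 0.12). With 1 library left out, they ran from -0.217 (without WT PTX mouse 3) to -0.00934 (without WT control 2), from 0.0027 (without KO control 3) to 0.0928 (without KO control 2) and from -0.185 (without WT control 3) to -0.00526 (without WT control 2). The genes whose FPKM ran most nearly parallel to it over the 11 libraries, among 4492 genes with a mean of at least 10 FPKM that were no members, were *Arpc2*, *Dnajc7* and *Sh3glb1*. The SD of their log2 ratio to *Stmn2* was 0.032, 0.040 and 0.054. For *Mapt* they were *Mapk8ip2*, *Pcbp1* and *Acp2*, at 0.033, 0.035 and 0.036. *Mapt* itself varied little between libraries, so steady genes give a small SD whether or not they run parallel to it.

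*Stmn3*, also a neuronal stathmin, lies at chr2:181306459-181314500 on the minus strand. It was at 475, 399 and 353 FPKM in WT controls, 364, 374 and 340.2 in WT mice after PTX, 356, 333 and 370.2 in KO controls, and 366 and 295 in KO mice after PTX. The highest value was again in WT control 1 and the lowest in the female KO mouse after PTX, and the groups overlapped in each comparison. PTX in WT gave a log2 fold change of -0.19 (SE 0.098, 95% interval -0.40 to 0.032), and KO against WT controls gave -0.21 (SE 0.098, 95% interval -0.42 to 0.013). Without WT control 1 these were -0.076 (SE 0.079) and -0.098 (SE 0.079).

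*Dpysl2* encodes CRMP2, which binds tubulin dimers and promotes axon growth, and lies at chr14:66802864-66868688 on the minus strand. WT controls had 56.2, 45.8 and 41.8 FPKM, WT mice after PTX 40.8, 44.4 and 37.6, KO controls 43.2, 37.5 and 41.4, and KO mice after PTX 43.0 and 33.2. Values overlapped between the groups of each comparison, and the highest was that of WT control 1. The log2 fold change was -0.23 for PTX in WT (SE 0.10, 95% interval -0.46 to -0.0014) and -0.23 for KO against WT controls (SE 0.10, 95% interval -0.46 to -0.0018), and neither passed the adjusted threshold. They were -0.12 (SE 0.087) and -0.12 (SE 0.087) without WT control 1.

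*Dpysl2* and *Stmn3* kept a nearly fixed ratio in all mice. The log2 ratio of *Stmn3* to *Dpysl2* lay between 3.04 and 3.18, and its SD of 0.046 was the smallest of the 45 pairs of members, whose median was 0.21. Of 4500 other genes with a mean of at least 10 FPKM, 4 had a smaller SD of the ratio to *Stmn3*, and the median was 0.20. *Mapt* and *Map1a* had the next smallest SD, 0.049, although 46 of 4500 genes had a smaller one with *Mapt*, where the median was 0.13. Both genes were steady between libraries, so this small SD does not show that they moved together. By contrast, *Map1b* was low where *Stmn3* was high in WT control 1, where the log2 ratio of *Map1b* to *Stmn3* was -1.48, against -0.743 to -0.292 in the other mice. The 17 pairs with the largest SD all held *Map2* or *Stmn4*. These ratios share libraries and their scaling and are descriptive.

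**Figure D4:**
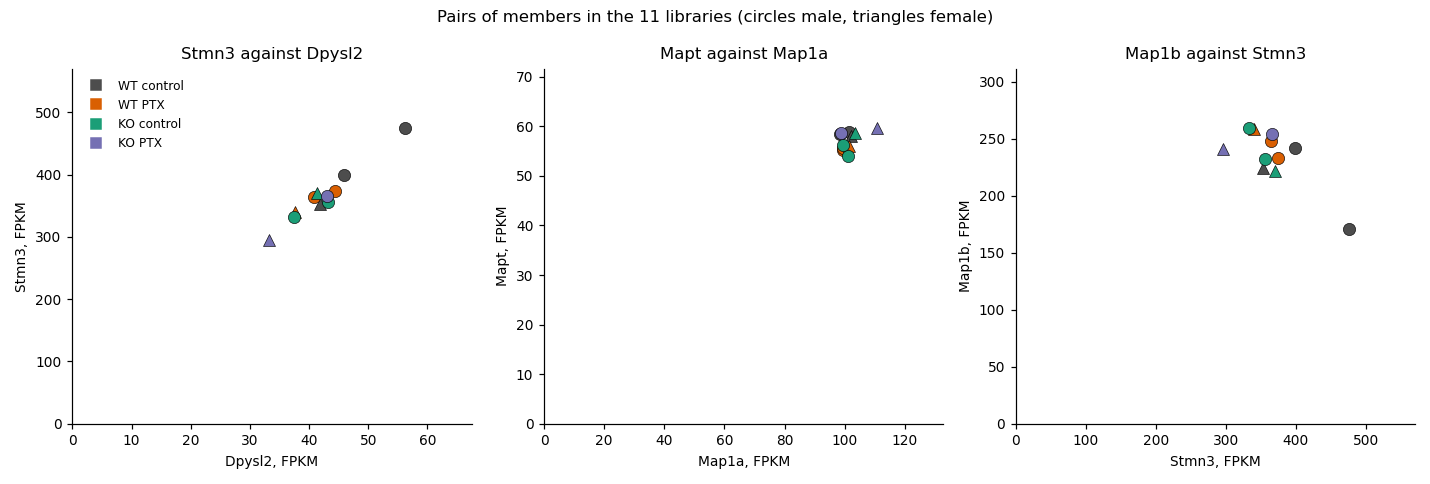
FPKM of 3 pairs of members in the 11 libraries, with *Stmn3* against *Dpysl2*, *Mapt* against *Map1a* and *Map1b* against *Stmn3*. Colours mark groups, circles male mice and triangles female mice, and axes start at 0. *Stmn3* and *Dpysl2* lie along a line through the origin, and WT control 1 lies apart with the highest *Stmn3* (475 FPKM) and the lowest *Map1b* (171 FPKM).

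*Stmn4*, the least expressed of the neuronal stathmins here, lies at chr14:66344296-66361680 on the plus strand. It was at 19.5 and 22.1 FPKM in the male WT controls and at 5.79 in the female WT control. WT mice after PTX had 7.50, 8.30 and 6.32 FPKM, KO controls 10.3, 12.5 and 5.20, and KO mice after PTX 10.3 and 8.95. Thus the male WT controls stood above every other mouse, and the female mouse was the lowest of its group in all 4 groups, which held for 2.28% of all genes. The counts behind these values were 737 to 3423 per library.

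*Stmn4* had the lowest unadjusted *P* of the members for PTX in WT, with a log2 fold change of -0.94 (SE 0.30, 95% interval -1.60 to -0.28, edgeR adjusted *P* = 0.276). For PTX in KO it was 0.30 (SE 0.33, 95% interval -0.43 to 1.04), and the difference of the PTX effects was 1.24 (SE 0.43, 95% interval 0.28 to 2.21, edgeR adjusted *P* = 0.724). KO against WT controls gave -0.69 (SE 0.29, 95% interval -1.33 to -0.045, edgeR adjusted *P* = 0.657), and KO against WT after PTX gave 0.55 (SE 0.32, 95% interval -0.17 to 1.28). Without the female WT control, PTX in WT gave -1.32 (SE 0.22, edgeR adjusted *P* = 0.0521) and KO against WT controls -1.03 (SE 0.21, edgeR adjusted *P* = 0.186). Without WT control 2, the highest, these were -0.742 (SE 0.30, edgeR adjusted *P* = 0.30) and -0.484 (SE 0.30, edgeR adjusted *P* = 0.55). Without KO PTX mouse 3, PTX in KO gave -0.135 and KO against WT after PTX 0.09, and without KO PTX mouse 2 they gave 0.751 and 0.976. The difference of the PTX effects ran from 0.772 to 1.66 with 1 library left out. Female against male mice differed by -0.89 on the log2 scale (SE 0.24, edgeR adjusted *P* = 0.448), in a comparison added after the values were seen. In that comparison 0 of 10 members passed, against 0.0398% of all genes, and *Stmn4* and *Dpysl2* were the 2 with an unadjusted *P* under 0.05 (8.44% of all genes).

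*Mapt* and *Stmn1*, picked because their PTX groups did not overlap controls by FPKM, were also set against neuronal RNA in the same library. The difference between log2(FPKM + 1) of *Mapt* and the mean log2(FPKM + 1) of the 10 sensory neuron markers was -0.84 to -0.68 in WT controls, -0.88 to -0.87 in WT mice after PTX, -0.91 to -0.85 in KO controls and -0.84 to -0.79 in KO mice after PTX. For *Stmn1* it was 0.567 to 1.05, 0.393 to 0.565, 0.271 to 0.508 and 0.543 to 0.603 in the same order. Neither gene overlapped between controls and PTX in either genotype on this scale. The scale holds the same FPKM values by which both genes were picked, so this gives no separate support. *Stmn1* in WT was separated by 0.567 against 0.565 only, and *Mapt* in KO by -0.84 against -0.845. The comparisons of genotypes differed from those by FPKM. *Mapt* was lower in KO than in WT controls without overlap on this scale, by -0.845 against -0.84, but not by FPKM. *Stmn1* overlapped between KO and WT after PTX on this scale but not by FPKM. Among the other members, *Map2* was higher without overlap for PTX in WT, and *Stmn4* for KO against WT after PTX. The share of all genes without overlap on this scale was not computed, so these separations cannot be read as particular to the members. The median log2 fold change of the neuron markers was 0.015 for PTX in WT and 0.036 for PTX in KO, and 0 of these markers passed the test.

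Other genes of the microtubule system showed no change that passed the test. Of 53 such genes (other structural proteins, plus-end proteins, other CRMPs, severing enzymes, tubulin-modifying enzymes and kinases of these proteins), 51 were tested, and 0 rose and 0 fell in every comparison by edgeR. At an unadjusted *P* under 0.05 there were 12 of 51 for PTX in WT (13.5% of all genes), 1 in KO mice after PTX (4.32%), 3 in KO against WT controls (7.54%) and 1 in KO against WT after PTX (3.55%). Groups did not overlap for 4 higher (6.81% of all genes) and 4 lower (7.37%) in WT mice after PTX, and for 4 higher (11.3%) and 2 lower (10.4%) in KO mice after PTX. In KO against WT controls there were 4 higher (4.55%) and 1 lower (4.73%), and in KO against WT after PTX 5 higher (10.7%) and 2 lower (9.58%). For PTX in WT, the lowest *P* among genes whose groups did not overlap belonged to *Ckap5*, a microtubule polymerase, with a log2 fold change of 0.25 (SE 0.075, edgeR adjusted *P* = 0.267). *Mapre2*, a plus-end binding protein, was at 0.23 (SE 0.086), and *Mark4*, a kinase that phosphorylates tau, at -0.16 (SE 0.066). For KO against WT controls the same rule gave *Camsap2*, a minus-end binding protein, at 0.30 (SE 0.11), *Mapre2* at 0.20 (SE 0.086) and *Clasp2*, a plus-end stabilizer, at 0.19 (SE 0.087). For PTX in KO it gave *Svbp*, the partner of the tubulin-detyrosinating vasohibins, at -0.31 (SE 0.20), *Clasp1* at 0.13 (SE 0.093) and *Spast*, a severing enzyme, at -0.11 (SE 0.11). For KO against WT after PTX it gave *Mark4* at 0.13 (SE 0.074), *Map7d1* at 0.20 (SE 0.13) and *Clasp1* at 0.12 (SE 0.093).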

How the data were processed

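The authors deposited 1 table for all libraries, with FPKM, which the authors scaled to gene length and depth, and with estimated counts, deposited without normalization. The submitters' processing notes name cutadapt, FastQC, HISAT2, StringTie and the build mm10, with no versions. Among genes of WT control 1, 1369 had a count of 4 against 573 with 3 and 334 with 5, and counts were therefore handled as estimates and rounded. Gene coordinates of the members equalled those of GENCODE M21 (GRCm38).

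The test was the quasi-likelihood test of edgeR 4.0.16 (R 4.3.3, TMM), with all 11 libraries in 1 fit and labelled sex as covariate, over the 15087 genes whose mean FPKM reached 0.5. An adjusted *P* under 0.05 (Benjamini-Hochberg) was the threshold. SEs were obtained as the log2 fold change over the root of the F statistic, and 95% intervals use t quantiles. DESeq2 1.42.0, limma 3.58.1 on log2(FPKM + 1) or log2(FPKM + 0.1), other scalings, filters and covariates, and each library left out were alternatives. The fit was also run on simulated counts with planted changes larger than most fold changes of the members. The simulated spread followed the trend over genes, with no outlying library. These runs therefore cannot show how well changes of the members' size would be found. Python 3.11.15, numpy 2.4.6, pandas 2.3.3 and matplotlib 3.10.9 were also used.

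The 10 members and all gene lists were chosen with earlier results of these data known. Named genes beyond the members were *Gpr37l1*, up to 3 other microtubule genes per comparison with the lowest unadjusted *P* among those whose groups do not overlap, and the 3 genes most like *Stmn2* and *Mapt*. *Npy*, *Unc80*, *Ppip5k1* and the genes most like *Stmn4* were named after their values were seen. Titles number the KO PTX libraries 1 and 2 and descriptions 2 and 3, and the latter were used. Deviations of same-numbered mice from their group means correlated at 0.103 to 0.208 in the 3 pairs of KO and WT controls. This met the limit for treating numbers as pairs, and the highest value was that of the mice labelled female. Between WT controls and WT mice after PTX, same-numbered pairs ran from -0.203 to 0.0541, and a pair with different numbers reached 0.212. The 2 KO mice after PTX deviate from their mean by mirrored amounts, so correlations with them cannot decide whether numbers pair. A pairing by number was thus not seen in every comparison. Mouse numbers come from the labels alone. Depth was 52735648 to 80348732 estimated counts per library, and groups had 2 or 3 mice.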

Additional observations from a re-analysis of the deposited data

Results flagged for a closer look

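*Mapt* and *Stmn1* stood out because every WT mouse after PTX was below every WT control while every KO mouse after PTX was above every KO control. In KO, *Mapt* was separated by 58.71 against 58.67 FPKM only. For *Stmn1*, the log2 fold change for PTX in WT went from -0.24 to -0.105 without WT control 1. The PTX effect in KO minus that in WT was 0.142 on the log2 scale for *Mapt* (SE 0.083) and 0.413 for *Stmn1* (SE 0.16). Neither difference passed edgeR's test of the interaction (adjusted *P* = 0.724 for both), and 0.974% of all genes tested showed such opposite directions.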

How the results depend on the processing

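No member passed the threshold under any of 21 alternative settings (0 of 1440 member results), the lowest adjusted *P* being 0.0521 for *Stmn4* in PTX in WT without WT control 3. The sign of a member's fold change turned in 63 of the 1440 results, 58 of them with a library left out, and 8 of the 63 moved by over 1 SE. DESeq2 called more genes than edgeR: 309 against 1 for PTX in WT, 29 against 1 in KO mice after PTX, 42 against 1 for KO against WT controls, 10 against 2 for KO against WT after PTX, 12 against 1 for the interaction, 125 against 2 for PTX over both genotypes and 28 against 2 for KO over both treatments. For PTX in WT the count was 2 without a filter, 5 with only the groups compared, 0 without the sex covariate (1802 genes at an unadjusted *P* under 0.05) and 0 with limma at a pseudocount of 1 (1861) or 0.1 (1858). With only the groups compared it was 4 in KO mice after PTX and 5 for KO against WT after PTX. For PTX over both genotypes it was 1 without the sex covariate, 0 with limma at a pseudocount of 1 and 1 at 0.1. With 1 library left out, counts ran from 0 to 30 for PTX in WT, 1 to 7 for PTX in KO, 1 to 4 for KO against WT controls, 2 to 7 for KO against WT after PTX, 1 to 6 for the interaction, 1 to 18 for PTX over both genotypes and 2 to 5 for KO over both treatments. The median log2 fold change of the members then ran from -0.209 to -0.0424, 0.0152 to 0.107, -0.169 to -0.0674, 0.0314 to 0.126, 0.127 to 0.211, -0.0846 to 0.00361 and -0.0688 to 0.0445 in the same order. Leaving out a KO PTX mouse leaves a lone library, which the fit assumes to vary like the other groups. The cause of these differences was not tested. With the replicate block in place of sex, 0 members passed, and the median was -0.114 for PTX in WT and -0.137 for KO against WT controls, so the block changed no call. Scaled to the longest coding transcript, 4 of 10 members kept their rank by level. Depth and the small groups both limit the precision.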

Other observations

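Over the 11 libraries, the genes whose FPKM ran most nearly parallel to *Stmn4* were *Vgf*, which encodes a secreted neuropeptide precursor, *S100a11* and *Itga7*, with an SD of the log2 ratio of 0.306, 0.335 and 0.336. *Vgf* was at 74.2 and 113 FPKM in the male WT controls, 33.3 in the female WT control and 25.9 to 54.7 in all other mice. *Npy* was at 16.4 and 20.1 FPKM in the male WT controls, at 0.19 in the female WT control, at 0.54, 3.24 and 0.40 in WT mice after PTX, at 4.95, 5.44 and 0 in KO controls, and at 3.83 and 2.03 in KO mice after PTX. In *Stmn4*, *Vgf* and *Npy* alike, the male WT controls stood above every other mouse. These genes were picked after their values were seen, so no test is given.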
